A study of Mus musculus with 6 samples.

Results

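The genes described here encode the ligands of the transforming growth factor beta (TGF-beta) pathway, the proteins that hold those ligands latent outside the cell, their receptors and a transcription factor that carries the signal. They are the latent TGF-beta binding protein genes Ltbp1, Ltbp3 and Ltbp4, the ligand genes Tgfb1, Tgfb2 and Tgfb3, the receptor genes Tgfbr1 and Tgfbr2, and Smad3. The 9 genes were taken by symbol from the 25241 genes of the deposited tables, and all 9 were present. The set was selected on a measured value, the difference in Ltbp1 between cadmium and control, which was among the clearest of those above control. For that reason the comparison of cadmium with control cultures is given for these genes as a description, and no test of it is used as evidence. Transcripts were measured by RNA sequencing in neural stem cells isolated from the subgranular zone of the wild type mouse hippocampus and cultured to passage 3. In 3 cultures 0.8 μM cadmium chloride was present for 72 h, and 3 cultures were left untreated. The labels call the replicates biological without saying whether they came from separate animals or platings, so p-values reflect variation among these 6 libraries only, which may be technical.

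TGF-beta is secreted as an inactive complex in which the mature ligand stays bound to its own cleaved propeptide. Latent TGF-beta binding proteins attach to that propeptide, carry the complex out of the cell and anchor it to fibrillin and fibronectin in the matrix, from which integrins and proteases release the active ligand. The ligand then joins the type II receptor to the type I receptor, which phosphorylates SMAD2 and SMAD3, and these enter the nucleus with SMAD4. In the brain the pathway is known for roles in astrocyte reactivity and in the control of progenitor proliferation in the adult dentate gyrus.

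The libraries held 37710042 to 41523231 counts. Along the leading principal component (65.0% of the variance) the cadmium libraries lay between 24.0 and 32.0, and control replicate 3 at -36.9 stood apart from the other control libraries at -23.4 and -22.4. The labelled cell type was checked on marker lists. All 8 neural stem and progenitor cell markers were detected, with a summed level of 7039 to 7239 CPM (counts relative to the TMM-scaled library total) in control and 7910 to 8105 CPM in cadmium libraries. Of the microglia and macrophage markers, 6 of 6 in the tables stayed under 1 CPM in every library, and the same was true of 6 of 7 endothelial markers. Astrocyte markers, 7 of 7 of which fell, summed to 4555 to 5703 CPM in control and 2102 to 2283 CPM in cadmium libraries. Oligodendrocyte lineage markers summed to 1124 to 1215 CPM in control and 1081 to 1180 CPM in cadmium libraries, which overlapped. Of 7 of them tested, 1 rose and 5 fell, against 23.1% and 22.4% of all genes tested. Neuron markers summed to 614 to 652 CPM in control and 551 to 634 CPM in cadmium libraries, and 1 of 7 fell. Map2, picked out after its values were seen, averaged 603 CPM in control and 567 CPM in cadmium libraries. Pericyte and fibroblast markers were scarce, at 7.70 to 9.02 CPM summed over 10 genes in control and 4.60 to 6.15 CPM in cadmium libraries. In bulk samples fewer cells of a type and less RNA per cell cannot be told apart, and the part of these shifts in the levels given below was not tested.

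The promoter sequences of Ltbp1 are shown because it is the gene whose level differed most, and because it has alternative start sites that the gene-level counts add together. RefSeq promoter entries were found for 8 of the 9 genes, with 12 start sites in all. They belong to build GRCm38.p6, not to GRCm39, which the submitters' processing notes name, and they were read by gene symbol and Entrez identifier. The 250 bases before each Ltbp1 start site on the plus strand of chromosome 17 follow, 5′ to 3′, with motif matches in capitals.
Ltbp1, upstream start site, chr17:75005279-75005528: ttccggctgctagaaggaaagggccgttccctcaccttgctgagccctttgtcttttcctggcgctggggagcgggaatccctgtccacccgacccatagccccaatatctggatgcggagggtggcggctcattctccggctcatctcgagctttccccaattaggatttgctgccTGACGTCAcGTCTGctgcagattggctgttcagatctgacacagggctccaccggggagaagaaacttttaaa
Ltbp1, downstream start site, chr17:75178531-75178780: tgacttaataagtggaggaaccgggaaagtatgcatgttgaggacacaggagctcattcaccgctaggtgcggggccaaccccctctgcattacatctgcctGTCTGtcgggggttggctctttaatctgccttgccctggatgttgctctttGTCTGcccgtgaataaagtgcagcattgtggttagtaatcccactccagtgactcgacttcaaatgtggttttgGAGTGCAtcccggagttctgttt
The motifs searched on both strands were the metal response element core TGCGCNC or TGCACNC, the antioxidant response element core TGACNNNGC, the AP-1 site TGACTCA, the SMAD box CAGAC and the cyclic AMP response element TGACGTCA, the last added after the sequence had been read. Before the upstream start site the capitals mark TGACGTCA at bases -73 to -66, which 1.55% of 32851 promoter windows of the same length hold, and a SMAD box on the minus strand at -64 to -60. Before the downstream start site they mark SMAD boxes on the minus strand at -148 to -144 and -97 to -93 and a TGCACNC match on the minus strand at -23 to -17. SMAD boxes stand in 42.2% of all windows and TGCACNC in 10.4%. Neither Ltbp1 window holds TGACNNNGC, TGCGCNC or TGACTCA, which stand in 10.2%, 12.5% and 4.46% of all windows. Among the other members, a TGACNNNGC match lies before Ltbp4, Tgfbr1 and Tgfbr2, and TGCGCNC and TGCACNC both lie before Smad3. SMAD boxes also lie before Tgfb2, Tgfbr1, Tgfbr2 and Ltbp3. The matches of Ltbp4 and Tgfbr1 do not lie before every start site of their gene. A match describes these letters and no binding was measured.

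Ltbp1 was the member with the largest difference. The deposited FPKM (counts divided by gene length and library total) of Ltbp1 (Entrez 268977), which links latent TGF-beta to the matrix, stood at 1.27, 1.16 and 1.05 in the control libraries, listed by replicate number, and at 3.16, 3.26 and 3.23 in the cadmium libraries. Every cadmium library was above every control library, and the cadmium libraries lay within a narrow range while control replicate 3 was the lowest. The underlying counts were 403, 375 and 340 against 1003, 959 and 1028. The log2 fold change of cadmium over control, fitted by edgeR across all genes, was 1.48 ± 0.08 (SE), a fold of 2.79. It ranked at place 132 from the top among the 14369 genes tested, and its absolute size exceeded that of 98.3% of them.

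The other latency proteins differed in opposite directions. Ltbp3 (16998), the most abundant member of all 9 per length and a partner of latent TGF-beta in bone and vessel wall, was at 29.4, 28.8 and 29.0 FPKM in control and 21.7, 22.4 and 22.4 FPKM in cadmium libraries, all of the latter below the former. Its log2 fold change was -0.38 ± 0.04, which is 0.766 times the control level. Ltbp4 (108075), a latency protein also needed for elastic fibre assembly, was at 7.09, 6.84 and 6.88 FPKM in control and 8.49, 8.88 and 8.79 FPKM in cadmium libraries. Here all cadmium libraries were above all control libraries, with a log2 fold change of 0.34 ± 0.05. Ltbp3 and Ltbp4 had the smallest spread of the set among control libraries, with a coefficient of variation of 1.14% and 1.68% of CPM, against 8.69% for Ltbp1. The remaining gene of the family, Ltbp2, whose product does not bind latent TGF-beta, was near the detection limit, with 1, 0 and 2 counts in control and 3, 5 and 0 counts in cadmium libraries.

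Put together, latency protein transcripts were fewer after cadmium and made up differently. Summed over Ltbp1, Ltbp3 and Ltbp4, levels were 37.8, 36.8 and 36.9 FPKM in control and 33.3, 34.5 and 34.4 FPKM in cadmium libraries, without overlap. The share of Ltbp3 in that sum was 78.2 ± 0.312% in control and 65.0 ± 0.134% in cadmium libraries (mean ± SD, n = 3). Ltbp1 took 3.11 ± 0.259% and 9.43 ± 0.0454%, and Ltbp4 took 18.7 ± 0.0854% and 25.6 ± 0.133%. Ltbp3 outnumbered Ltbp1 by a factor of 23.2, 24.9 and 27.6 in the control libraries and of 6.87, 6.87 and 6.94 in the cadmium libraries, on the FPKM scale. Ltbp3 thus stayed the leading latency transcript in all 6 libraries.

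**Figure D1:**
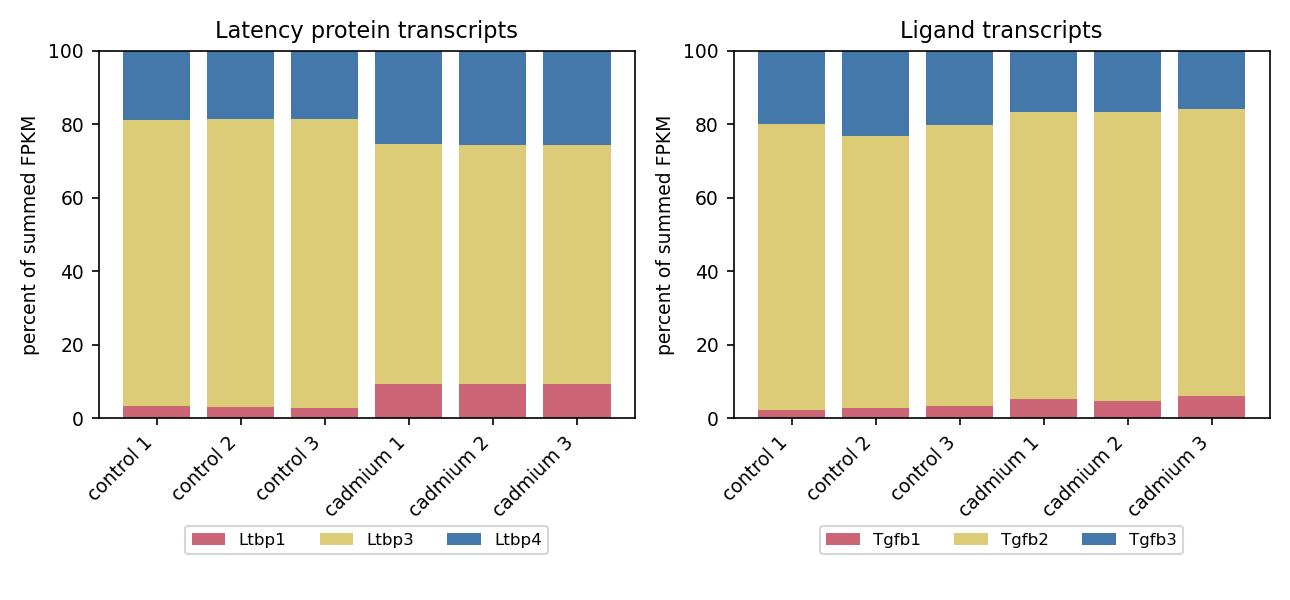
Share of each gene in the summed FPKM of the latency protein genes (left) and of the ligand genes (right), in percent, for each of the 6 libraries. Ltbp3 holds 78.2 ± 0.312% in control and 65.0 ± 0.134% in cadmium libraries, and Tgfb2 is the largest share among ligands in every library.

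Among the ligands, Tgfb2 (21808) was the main transcript, and both Tgfb2 and Tgfb3 were lower after cadmium. Tgfb2, a ligand needed in heart and craniofacial development, was at 9.88, 10.4 and 10.9 FPKM in control and 9.08, 8.93 and 9.12 FPKM in cadmium libraries. The groups did not overlap, but the lowest control library, replicate 1, was close to the cadmium libraries, and the log2 fold change was small at -0.19 ± 0.05. Tgfb3 (21809), a ligand needed for palate fusion, was at 2.53, 3.27 and 2.85 FPKM in control and 1.95, 1.89 and 1.86 FPKM in cadmium libraries. Control libraries of Tgfb3 were spread widely, with a coefficient of variation of 12.8% of CPM, and still lay above all cadmium libraries, whose coefficient was 2.22%. The log2 fold change of Tgfb3 was -0.59 ± 0.11.

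Tgfb1 (21803), the ligand most studied in inflammation and fibrosis, was the scarcest of the 9 genes. It had 27, 35 and 42 counts in control and 56, 45 and 65 counts in cadmium libraries, or 0.302, 0.384 and 0.461 against 0.627, 0.543 and 0.726 FPKM. All cadmium libraries were above all control libraries, by a small margin between control replicate 3 and cadmium replicate 2. At such counts the exact 95% Poisson intervals, which cover counting error only, ran from 30.3 to 56.8 counts for control replicate 3 and from 32.8 to 60.2 counts for cadmium replicate 2, so the intervals of this pair overlapped. The log2 fold change was 0.73 ± 0.27, with the largest SE of the set, and it ranged from 0.59 to 0.90 when single libraries were left out.

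The summed ligand level was 12.7, 14.1 and 14.2 FPKM in control and 11.7, 11.4 and 11.7 FPKM in cadmium libraries, again without overlap. Tgfb2 made up 76.2 ± 1.85% of it in control and 78.1 ± 0.422% in cadmium libraries. Tgfb3 made up 21.1 ± 1.83% and 16.4 ± 0.448%, and Tgfb1 2.78 ± 0.440% and 5.45 ± 0.715% (SD, n = 3). Tgfb1 had the smallest share in each of the 6 libraries, and Tgfb2 was 12.6 to 32.7 times as high.

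Receptor transcripts overlapped between groups. Tgfbr1 (21812), the type I receptor kinase, was at 9.23, 8.38 and 7.002 FPKM in control and 9.06, 8.41 and 9.48 FPKM in cadmium libraries. Its control libraries spanned a wide range, and the lowest value was that of control replicate 3. The log2 fold change was 0.14 ± 0.08, and it was 0.23 without control replicate 1 and 0.05 without control replicate 3. Tgfbr2 (21813), the type II receptor that binds the ligand first, was at 3.45, 3.45 and 3.98 FPKM in control and 3.75, 4.24 and 4.02 FPKM in cadmium libraries. Here control replicate 3 was the highest control library, and the log2 fold change of 0.15 ± 0.08 became 0.23 without it. The ratio of Tgfbr1 to Tgfbr2 was 2.67, 2.43 and 1.76 in control and 2.41, 1.98 and 2.36 in cadmium libraries, so the lowest ratio belonged to control replicate 3.

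Smad3 (17127), the receptor-activated transcription factor of the pathway, was at 7.75, 7.27 and 6.76 FPKM in control and 8.82, 9.04 and 8.64 FPKM in cadmium libraries. All cadmium libraries were above all control libraries, and the log2 fold change was 0.29 ± 0.06. Transcript levels say nothing of SMAD3 phosphorylation, which was not measured.

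**Figure D2:**
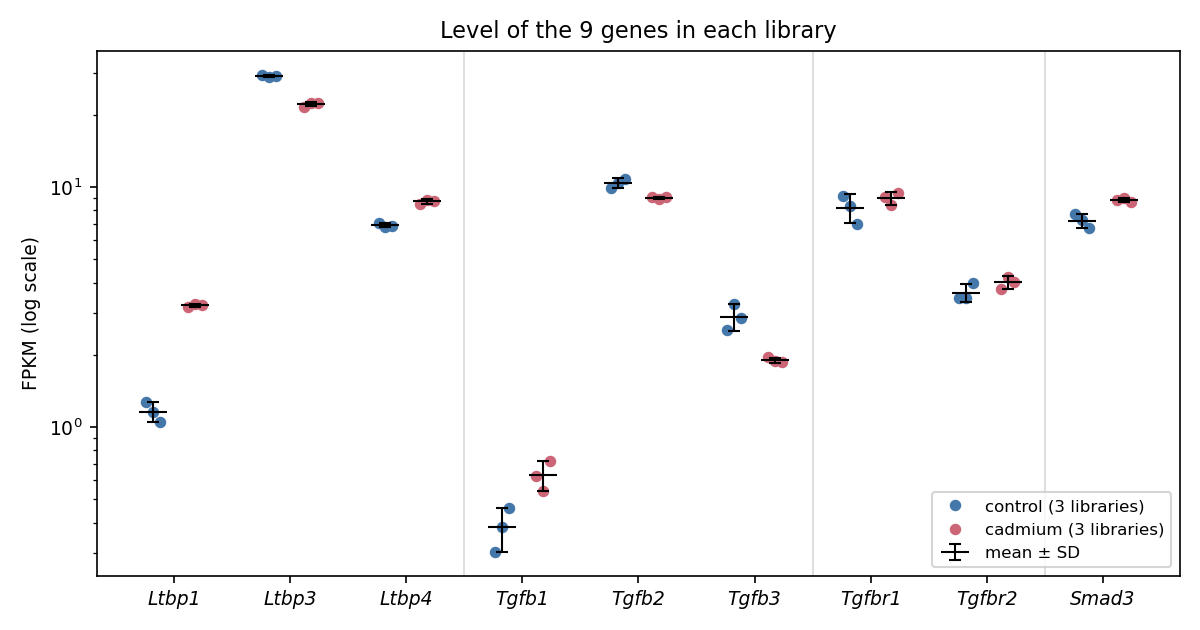
FPKM on a log scale for the 9 genes in each library, with 3 control (blue) and 3 cadmium (red) points per gene and black bars for mean ± SD. Ltbp1 stands at 1.16 ± 0.111 in control and 3.21 ± 0.0514 in cadmium libraries, and only the points of Tgfbr1 and Tgfbr2 overlap between groups.

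Ordered by FPKM in the control libraries, the genes ran from Ltbp3 (29.1 ± 0.324) through Tgfb2 (10.4 ± 0.490), Tgfbr1 (8.20 ± 1.12), Smad3 (7.26 ± 0.496), Ltbp4 (6.94 ± 0.132), Tgfbr2 (3.63 ± 0.305), Tgfb3 (2.88 ± 0.369) and Ltbp1 (1.16 ± 0.111) to Tgfb1 (0.382 ± 0.0791; mean ± SD, n = 3). The ranges of Tgfbr1 and Smad3 and those of Smad3 and Ltbp4 overlapped, and the other neighbours did not. In the cadmium libraries Ltbp1 (3.21 ± 0.0514) stood above Tgfb3 (1.90 ± 0.0467), the reverse of their order in control, with no overlap in either group. Tgfb2 (9.04 ± 0.0971), Tgfbr1 (8.98 ± 0.539), Smad3 (8.83 ± 0.1995) and Ltbp4 (8.72 ± 0.205) formed a run in which each overlapped its neighbour.

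Of the 9 members, 7 had groups that did not overlap in FPKM, 4 with cadmium above and 3 with cadmium below, where 56.2% of all 14369 genes tested did not overlap. The same 7 had an adjusted p below 0.05 in edgeR's quasi-likelihood test (Benjamini-Hochberg over all genes tested), against 45.5% of all genes. Among them Tgfb1 no longer did without control replicate 1, control replicate 2, cadmium replicate 1 or cadmium replicate 3. Nothing is read from this count, since the contrast took part in choosing the set. The median log2 fold change of the 9 was 0.15, and that of all genes tested was -0.01.

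Control replicate 3, the library that stood apart on the leading principal component, was the highest or lowest control library in several members. On the log2 CPM scale it lay 0.43 from the mean of the other control libraries for Tgfb1, -0.30 for Tgfbr1, 0.23 for Tgfbr2 and -0.18 for Ltbp1. Deviations from the mean of all control libraries were -0.31 for replicate 1 and 0.29 for replicate 3 in Tgfb1. They were 0.17 and -0.20 in Tgfbr1 and 0.13 and -0.12 in Ltbp1, so replicate 1 lay about as far on the other side. In Tgfbr2 they were -0.08, -0.08 and 0.15 by replicate number, so there replicate 3 alone lay off. For Tgfb1 the 95% Poisson intervals of control replicates 1 and 3 overlapped (17.8 to 39.3 and 30.3 to 56.8 counts). Without control replicate 3 the log2 fold change was 1.42 for Ltbp1, -0.38 for Ltbp3 and 0.34 for Ltbp4. For the ligand genes it was 0.90 for Tgfb1, -0.15 for Tgfb2 and -0.59 for Tgfb3, and for Smad3 it was 0.25. Each of these 7 genes kept its direction.

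**Figure D3:**
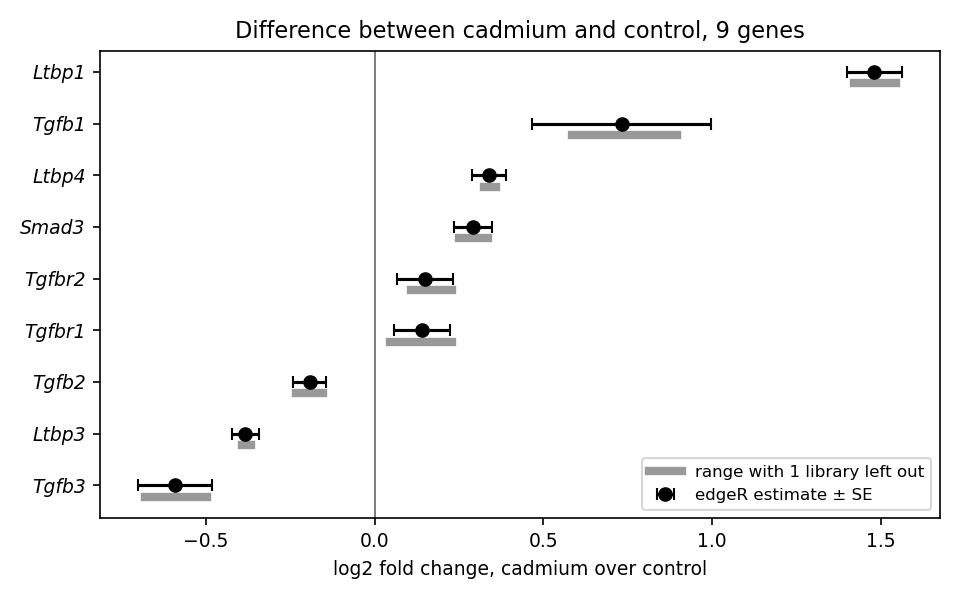
Log2 fold change of cadmium over control for the 9 genes, with black points for the edgeR estimate ± SE and grey bars for the range over the 6 fits that each leave out 1 library. Ltbp1 lies at 1.48 ± 0.08, apart from the others, and Tgfb1 has the longest error bar.

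Genes that act on latent complexes moved in both directions. Of 21 tested among 23 listed, 6 rose and 8 fell (edgeR adjusted p below 0.05, against 23.1% rising and 22.4% falling among all genes tested), with a median log2 fold change of -0.01. The αv integrin chain gene Itgav, part of the integrins that release active ligand, rose from 27.1 ± 1.14 to 34.3 ± 1.09 FPKM (log2 fold change 0.35 ± 0.04, adjusted p = 1.2e-05). The fibrillin gene Fbn1, whose product is the matrix anchor of latency proteins, rose from 4.54 ± 0.411 to 5.95 ± 0.0585 FPKM (0.40 ± 0.06, adjusted p = 7.3e-05). The membrane protease gene Mmp14 fell from 27.9 ± 1.21 to 20.3 ± 0.334 FPKM (-0.45 ± 0.05, adjusted p = 4.1e-06), as did the integrin gene Itgb5, from 38.3 ± 0.973 to 31.3 ± 0.912 FPKM (-0.28 ± 0.04, adjusted p = 1.2e-04). The number that fell was 5 without control replicate 3 or without cadmium replicate 1.

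Further genes of this list were picked out after their values were seen. Fbn2, a fibrillin gene of developing tissue, rose from 1.67 ± 0.450 to 4.39 ± 0.419 FPKM (1.41 ± 0.19, adjusted p = 0.0016), with counts of 869, 822 and 513 in control and 1798, 1970 and 1824 in cadmium libraries. Lrrc32, whose product GARP tethers latent TGF-beta to the cell surface, rose from 0.387 ± 0.0505 to 0.780 ± 0.0382 FPKM (1.02 ± 0.18, adjusted p = 2.9e-04). Itgb8, the integrin β8 chain that pairs with αv and activates TGF-beta in the brain, fell from 47.0 ± 3.85 to 31.4 ± 4.32 FPKM (-0.57 ± 0.11, adjusted p = 0.0055). That call was lost without control replicate 3 (adjusted p = 0.082), with a range of 1.6e-07 to 0.082 over its alternatives. Furin, the protease gene whose product cleaves the ligand precursors, fell from 11.6 ± 0.0422 to 9.69 ± 0.395 FPKM (-0.25 ± 0.05, adjusted p = 0.001).

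Among co-receptors and receptor regulators, 5 rose and 3 fell of 16 tested, with a median log2 fold change of 0.07. The share called was 50%, near the 45.5% of all genes tested. The stress-induced phosphatase subunit gene Ppp1r15a, which can also bring a phosphatase to the type I receptor, rose from 5.18 ± 0.399 to 8.47 ± 0.658 FPKM (0.72 ± 0.08, adjusted p = 1.1e-05 by edgeR). Fkbp1a, whose product FKBP12 holds the type I receptor inactive, rose from 154 ± 6.68 to 186 ± 5.44 FPKM (0.29 ± 0.04, adjusted p = 6.6e-05). The caveolin gene Cav1 fell from 12.2 ± 0.322 to 8.50 ± 0.0756 FPKM (-0.51 ± 0.05, adjusted p = 4.5e-06), and the endocytic adaptor gene Dab2 fell from 2.01 ± 0.0495 to 1.46 ± 0.105 FPKM (-0.45 ± 0.09, adjusted p = 8.7e-04). Only 3 rose when control replicate 1, cadmium replicate 1 or cadmium replicate 2 was left out. The co-receptor gene Tgfbr3, chosen after its values were seen, was scarce at 30, 34 and 43 counts in control and 67, 55 and 49 in cadmium libraries. Its call (0.74 ± 0.26, adjusted p = 0.031) was lost on leaving out control replicate 1, control replicate 2, cadmium replicate 1 or cadmium replicate 2 (adjusted p 0.021 to 0.11 over its alternatives).

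Of 17 SMAD and nuclear partner genes tested, 3 rose and 2 fell, and 12 did not pass, with a median log2 fold change of -0.02. The share called was 29.4%, below the 45.5% of all genes tested, a difference that was not tested. Without control replicate 2, 0 fell, and 1 fell without control replicate 3 or any 1 of the cadmium libraries, while on log2(FPKM + 0.1) 1 rose. Smad2, which works beside Smad3, rose from 3.79 ± 0.284 to 4.35 ± 0.116 FPKM (0.21 ± 0.06, adjusted p = 0.0063 by edgeR), a call lost on log2(FPKM + 0.1) (adjusted p = 0.051). The kinase gene Sik1 rose from 0.739 ± 0.1001 to 1.07 ± 0.0626 FPKM (0.55 ± 0.14, adjusted p = 0.0052). The SMAD corepressor genes Skil and Tgif1 were the ones that fell, Skil from 4.87 ± 0.274 to 4.19 ± 0.251 FPKM (-0.21 ± 0.07, adjusted p = 0.017) and Tgif1 from 2.22 ± 0.162 to 1.84 ± 0.216 FPKM (-0.27 ± 0.11, adjusted p = 0.0495). The Tgif1 call was lost in 10 of 15 alternatives (adjusted p 0.027 to 0.21), and that of Skil without control replicate 2 or cadmium replicate 2 (0.0063 to 0.087). Smad4, the common partner, was at 15.4 ± 0.119 and 15.2 ± 0.346 FPKM (-0.01 ± 0.04), and the inhibitory Smad7 at 0.298 ± 0.0626 and 0.234 ± 0.105 FPKM (-0.34 ± 0.31). Both were chosen after their values were seen.

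Of 30 listed genes that TGF-beta is known to induce in other cells, 24 were tested, 4 rose, 7 fell and 13 did not pass, with a median log2 fold change of -0.18. Calls thus made up 45.8% of the list and 45.5% of all genes tested. The cell cycle inhibitor gene Cdkn1a rose from 128 ± 7.499 to 176 ± 7.35 FPKM (0.46 ± 0.05, adjusted p = 2.4e-06 by edgeR), and it is also a p53 target. The actin filament gene Tpm1 rose from 18.2 ± 0.422 to 21.2 ± 0.580 FPKM (0.22 ± 0.04, adjusted p = 6.5e-04). The matrix proteoglycan gene Vcan fell from 9.05 ± 0.620 to 6.34 ± 0.433 FPKM (-0.51 ± 0.06, adjusted p = 1.7e-05), and the list also holds Itgb5, given above. Of other genes chosen after their values were seen, the early response gene Klf10 rose from 8.70 ± 1.86 to 17.1 ± 3.65 FPKM (0.98 ± 0.23, adjusted p = 0.023). Its call was lost without control replicate 1, control replicate 3 or cadmium replicate 3 and with no filter on low counts (adjusted p 3.4e-07 to 0.095). The collagen gene Col1a2, which is also in the fibroblast marker list, fell (-1.92 ± 0.41, adjusted p = 0.0016) from 40, 28 and 32 counts to 5, 6 and 14 counts.

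The matrix antagonist list had 6 of 10 genes tested, of which 1 rose and 4 fell, with a median log2 fold change of -0.39. Among all genes tested 23.1% rose and 22.4% fell. The protease gene Htra3 fell from 7.98 ± 0.732 to 4.98 ± 0.230 FPKM (-0.67 ± 0.08, adjusted p = 9.2e-06 by edgeR), and Nbl1, a secreted antagonist of the related bone morphogenetic proteins, fell from 29.5 ± 1.30 to 20.7 ± 0.479 FPKM (-0.50 ± 0.05, adjusted p = 2.4e-06). The perlecan gene Hspg2 rose from 4.57 ± 0.290 to 5.54 ± 0.152 FPKM (0.29 ± 0.05, adjusted p = 3.6e-04). Bgn, which encodes the proteoglycan biglycan and was chosen after its values were seen, fell (-2.21 ± 0.36, adjusted p = 1.6e-04) from 60, 47 and 68 counts to 8, 9 and 19 counts. Of the pericyte and fibroblast markers, 3 of 7 tested fell, namely Pdgfrb, Rgs5 and Col1a2 itself, while Col1a1, Acta2, Tagln and Des did not pass. Any part of such cells in the levels of Bgn and Col1a2 was not tested.

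In the activin, nodal and myostatin branch, whose receptors signal through the same SMADs, 8 of 15 genes in the tables were tested, 0 rose and 2 fell, together 25% against 45.5% of all genes tested. The median log2 fold change was -0.07, and 1 fell without control replicate 2, control replicate 3 or any 1 of the cadmium libraries. The inhibin alpha chain gene Inha fell from 0.946 ± 0.118 to 0.461 ± 0.0305 FPKM (-1.03 ± 0.20, adjusted p = 5.9e-04 by edgeR). The activin type I receptor gene Acvr1b fell from 9.50 ± 0.505 to 8.50 ± 0.294 FPKM (-0.15 ± 0.06, adjusted p = 0.048), a call lost in 9 of 15 alternatives (adjusted p 0.026 to 0.17). Over all 6 lists, 19 of 88 genes tested rose and 24 fell, together 48.9%, where 45.5% of all genes tested changed.

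**Figure D4:**
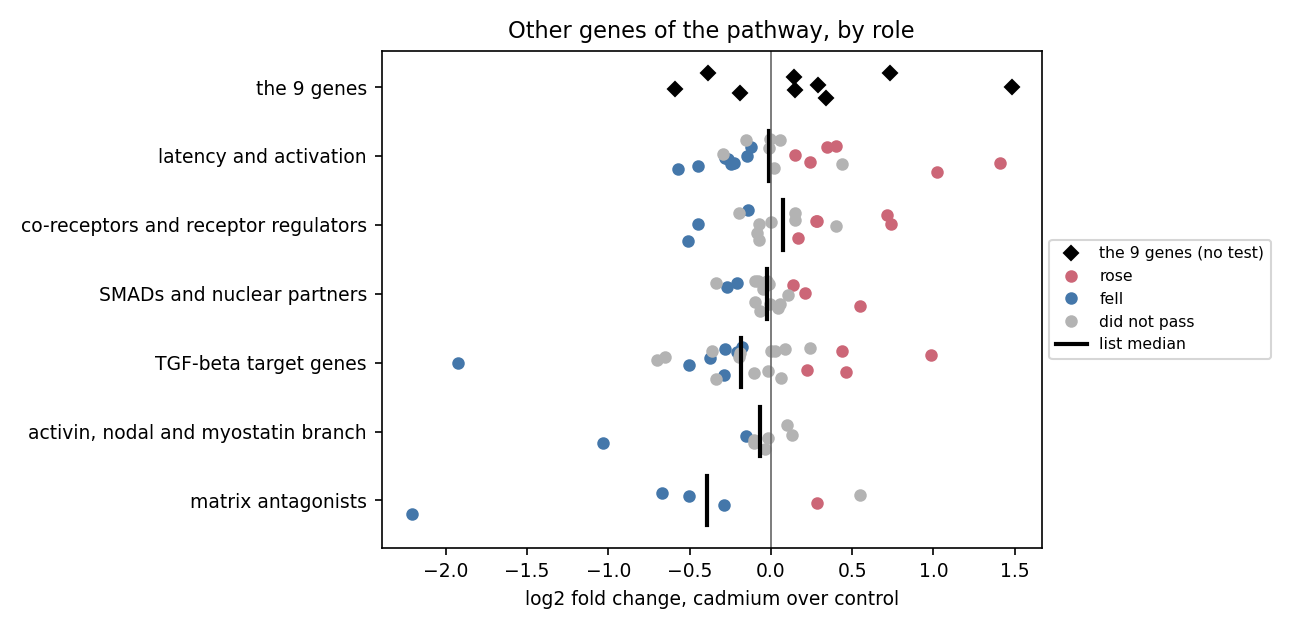
Log2 fold change of cadmium over control for the genes tested in each list of pathway genes, with red for genes that rose, blue for genes that fell, grey for genes that did not pass and a black line at the list median. The 9 genes described here are drawn as black diamonds without a test, and list medians run from -0.39 for matrix antagonists to 0.07 for co-receptors and receptor regulators.

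A further list was taken from the annotation in the deposited tables, after these had been read. It assigns 99 other genes to the KEGG TGF-beta signaling pathway, which also covers the bone morphogenetic protein (BMP) branch, and of 74 tested 20 rose and 16 fell, together 48.6%, near the 45.5% of all genes tested. Their median log2 fold change was 0.00. Tfdp1, a partner of the E2F cell cycle factors, rose from 37.9 ± 3.19 to 52.8 ± 1.248 FPKM (0.49 ± 0.05, adjusted p = 3.8e-06 by edgeR), and the ligand gene Bmp7 rose from 28.9 ± 3.49 to 45.8 ± 2.34 FPKM (0.67 ± 0.07, adjusted p = 2.4e-05). The BMP-responsive Id4 fell from 10.2 ± 1.29 to 3.19 ± 0.291 FPKM (-1.67 ± 0.10, adjusted p = 1.4e-07), and the BMP receptor gene Bmpr1b fell from 6.54 ± 0.173 to 4.16 ± 0.1995 FPKM (-0.64 ± 0.05, adjusted p = 6.9e-07).

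The genes whose levels most resembled those of Ltbp1 over the 6 libraries were sought among the 10574 tested genes that averaged 5 CPM or more, by Pearson correlation of log2 CPM. They were Chpf2, a chondroitin synthesis gene (r = 0.999), Lrrc8b, a subunit of volume-regulated anion channels (0.999), Hnrnpd, an RNA-binding protein gene (0.999), Txnrd1, which encodes thioredoxin reductase (0.998), and Lpo, a peroxidase gene (0.998). All 5 were higher in cadmium libraries, with log2 fold changes of 0.31, 0.53, 0.35, 0.63 and 1.09 in that order. A correlation of at least 0.95 with Ltbp1 was found for 1246 genes. These values are a description, since all come from the same 6 libraries and include the difference between groups.

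Reads of a gene and of an overlapping antisense gene cannot be told apart, because strand use in counting, not given in the sources used here, is unknown. In the GENCODE M21 annotation of GRCm38, Tgfb2 and Tgfb3 share 124 to 257 exon bases each with noncoding models on the opposite strand.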

How the data were processed

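Deposited tables hold whole-number read counts per gene, made by the authors, and FPKM, per the file headers. The submitters' processing notes name build GRCm39 and, with no role or order, HTSeq 0.11.2, DESeq2 1.22.2, HISAT2 2.1.0 and fastp 0.20.1; annotation and strand use are not given in the sources used here. Each FPKM value deposited by the authors equalled the count over library total and 1 gene length (largest relative deviation 1.63e-08), so both tables hold the same measurement.

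The fit across all genes used edgeR 4.0.16 under R 4.3.3, with TMM scaling, group as the term and a robust quasi-likelihood test. filterByExpr (minimum count 10, minimum total 15) left 14369 of 25241 genes. P-values are two-sided and Benjamini-Hochberg adjusted over all genes tested. The SE was derived from each log2 fold change and its F value. Replicates of a group differed beyond sampling noise (chi-square per degree of freedom 3.56 to 13.6). Alternatives used DESeq2 1.42.0, limma 3.58.1, other scalings and filters, and left out single libraries. The fit was tested on simulated data.

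The members and lists were chosen with earlier results of these data known. Named list genes have the 2 smallest p among those that rose and among those that fell. Ltbp2 is named as the remaining gene of its family, and any other choice is marked in the text. The 5 best correlated genes are named for Ltbp1, without predicted genes, clones or pseudogenes. The KEGG list was added after the tables had been read. Cripto and the markers Aif1, Cx3cr1 and C1qb were not analysed here.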

Additional observations from a re-analysis of the deposited data

How the results depend on the processing

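Direction was kept by all 9 members under every alternative that gave them a value; Tgfb1 had none with at least 5 CPM in 3 libraries or a mean FPKM of at least 1. On log2(FPKM + 1) the log2 fold changes were 0.97 for Ltbp1, 0.29 for Ltbp4, 0.24 for Tgfb1 and -0.42 for Tgfb3, the same with an FPKM minimum where tested; this pseudocount shrinks differences of genes with few FPKM. Leaving out single libraries gave 1.42 to 1.55 for Ltbp1, -0.39 to -0.37 for Ltbp3, 0.32 to 0.36 for Ltbp4, -0.23 to -0.15 for Tgfb2, -0.68 to -0.50 for Tgfb3, 0.05 to 0.23 for Tgfbr1, 0.11 to 0.23 for Tgfbr2 and 0.25 to 0.34 for Smad3. Tgfb1 fell short of the threshold without control replicate 1, control replicate 2, cadmium replicate 1 or cadmium replicate 3, and the cause was not tested. Tgfbr1 passed it with no filter on low counts and without control replicate 1, and Tgfbr2 without control replicate 3. With single libraries left out 2719 to 3182 genes rose and 2617 to 3039 fell, and 16 to 20 and 17 to 25 genes of the 6 lists. In the SMAD list 1 gene fell, where 2 did, with median-of-ratios scaling, DESeq2, no filter or limma, and in the activin list with median-of-ratios scaling, DESeq2, no filter, either stricter filter or the replicate block.

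Deviations of same-numbered libraries correlated at 0.02, 0.05 and -0.01, and not every sample correlated best with its own number. Whether same-numbered samples share an origin is not given by the labels. With 3 libraries per group these correlations cannot decide it. With the replicate block 3317 genes rose and 3192 fell, and 20 and 23 genes of the 6 lists. Tgfb1, with 27 to 65 counts, is the member that depth limits most.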
